A study of Mus musculus with 2 samples.

Results

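The NR4A, EGR, Zfp36, Ier and Btg genes described here are rapid-response genes, switched on within minutes of a stimulus from promoters that need no newly made protein. The members were taken by symbol from the deposited count table: Nr4a1, Nr4a2, Nr4a3, Egr1, Egr2, Egr3, Zfp36, Zfp36l1, Ier2 and Btg2. All 10 were found among its 16040 genes. The table holds tag counts from 2 libraries of mouse lung fibroblasts made by SAGE (serial analysis of gene expression), a method that reads a short tag from the 3′ part of each transcript. Both libraries came from Col1a2-EGFP mice, whose green fluorescent reporter is tied to a type 1 collagen gene, at day 14 after an injection into the trachea. The saline library came from fibroblasts of 3 mice given saline and the bleomycin library from fibroblasts of 3 mice given bleomycin, a DNA-damaging drug that scars the lung. Cells were sorted as reporter-positive and lineage-negative; the sources used here give neither the lineage markers, nor the doses, nor the age of the mice. With 1 library for each group and no value for a single mouse, no difference below has a replicate check, and the tests compare the reads of 2 libraries and not the conditions.

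NR4A proteins are orphan nuclear receptors, transcription factors whose activity follows how much of them is made. EGR proteins bind GC-rich DNA through zinc fingers, and their activity is held back by the corepressors Nab1 and Nab2. Zfp36 proteins bind AU-rich stretches in the 3′ ends of short-lived messages and bring in the CCR4-NOT deadenylase, which shortens the poly(A) tail so that the message is destroyed. Btg2 belongs to a family of proteins that also bind that deadenylase and slow cell division, and Ier2 encodes a small nuclear protein. In fibroblasts these genes answer serum, growth factors, wounding and stress, and they are also induced when tissue is digested with enzymes to free its cells.

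The saline library held 1080798 counts and the bleomycin library 1099840. Levels are given as CPM, the count scaled to library size; a saline count is worth 0.912 CPM and a bleomycin count 0.922 CPM. A SAGE transcript gives a tag from a single site, so levels of different genes were compared as tag counts, with no division by transcript length. For Nr4a1 and Egr1 the last CATG, where a SAGE tag lies, began 13 and 26 bases before the end of the GENCODE M21 transcript. That is short of the 27 bases of a whole tag, counted from the CATG, so whether their tags are shared with another gene was not checked. The site behind their counts was not identified, and comparisons of their levels and shares with other genes carry that limit. The 6 lung fibroblast markers summed to 14295 saline and 22119 bleomycin counts, and Col1a2, the gene behind the reporter, gave 1636 and 5613 of them. They did not move together: Col1a1 had 2714 and 7925 counts and Col3a1 4087 and 6186. Dcn had 4861 and 1606, Pdgfra 509 and 323, and Lum 488 and 466. The 13 leukocyte and macrophage markers found in the table summed to 9 and 11 counts, with Ptprc, the common leukocyte antigen, at 0 and 1. The 14 endothelial markers summed to 588 and 41 counts. Ranges in brackets are exact 95% intervals and cover counting error only.

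Because the members answer signals through short promoter motifs, the 250 bases before the start site of each member in a RefSeq promoter table (assembly GRCm38.p6) were searched on both strands. The motifs were the cyclic AMP response element TGACGTCA, its half-site TGACG, the CArG box that binds serum response factor, and the EGR sites GCGTGGGCG and GCGGGGGCG. A full response element also counts as 2 half-sites. Of the members, 7 matched an entry: Nr4a1, Nr4a2, Nr4a3, Egr2, Zfp36, Zfp36l1 and Btg2. The windows below are shown because they hold the motifs, with every match in capitals, 5′ to 3′ on the strand of the gene.
Nr4a1, chr15:101266596-101266845, + strand: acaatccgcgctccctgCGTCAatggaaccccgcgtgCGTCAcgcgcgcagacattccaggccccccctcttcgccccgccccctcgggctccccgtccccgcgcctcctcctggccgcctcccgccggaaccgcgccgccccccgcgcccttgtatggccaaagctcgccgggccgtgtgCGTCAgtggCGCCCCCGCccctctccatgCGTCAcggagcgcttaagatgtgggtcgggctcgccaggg
Nr4a2, chr2:57124004-57124253, − strand: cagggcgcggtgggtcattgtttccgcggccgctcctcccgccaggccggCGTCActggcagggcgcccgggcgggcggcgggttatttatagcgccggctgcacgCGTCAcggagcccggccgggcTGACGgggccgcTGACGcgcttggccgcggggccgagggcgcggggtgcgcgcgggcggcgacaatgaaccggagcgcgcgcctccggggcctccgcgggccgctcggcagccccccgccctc
Nr4a3, chr4:48045055-48045304, + strand: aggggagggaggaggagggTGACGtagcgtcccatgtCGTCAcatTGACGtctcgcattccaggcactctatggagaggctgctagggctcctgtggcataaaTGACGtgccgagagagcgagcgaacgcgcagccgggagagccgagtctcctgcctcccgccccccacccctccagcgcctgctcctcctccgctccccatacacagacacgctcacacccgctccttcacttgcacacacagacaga
Egr2, chr10:67537619-67537868, + strand: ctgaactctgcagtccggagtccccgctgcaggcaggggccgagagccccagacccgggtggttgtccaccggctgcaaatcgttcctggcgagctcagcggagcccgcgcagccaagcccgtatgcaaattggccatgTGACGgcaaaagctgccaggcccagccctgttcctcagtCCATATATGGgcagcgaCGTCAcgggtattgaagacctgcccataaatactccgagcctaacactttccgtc
Zfp36, chr7:28379229-28379478, − strand: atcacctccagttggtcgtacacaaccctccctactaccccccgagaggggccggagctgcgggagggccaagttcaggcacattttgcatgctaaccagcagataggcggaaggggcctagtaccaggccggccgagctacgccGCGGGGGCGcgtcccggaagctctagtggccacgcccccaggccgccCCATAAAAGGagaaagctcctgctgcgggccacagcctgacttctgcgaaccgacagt
Btg2, chr1:134079156-134079405, − strand: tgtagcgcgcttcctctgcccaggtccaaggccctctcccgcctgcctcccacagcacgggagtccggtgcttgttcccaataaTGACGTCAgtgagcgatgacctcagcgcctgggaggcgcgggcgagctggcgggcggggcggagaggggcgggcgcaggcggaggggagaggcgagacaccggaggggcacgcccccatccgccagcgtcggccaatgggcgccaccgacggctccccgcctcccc

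All 3 NR4A windows held 4 half-sites each, whereas 17.8% of the 32851 promoter windows in the table held at least 1 and 0.137% held 4 or more. The 4 half-sites of Nr4a1 began 233, 213, 69 and 40 bases before the start, and its EGR site began 60 bases before it. These half-sites and the EGR site all lay on the strand opposite to the gene. An EGR site was found in 3.06% of all windows. The Zfp36 window held a CArG box, found in 1.47% of all windows, and an EGR site. Of 5 start sites listed for Egr2, whose windows partly overlap, 4 had a CArG box before them, and the window printed is the third. Btg2 held the only full response element among the members' windows, 166 bases before the start, against 1.55% of all windows. None of these letters occurred in the Zfp36l1 window. These matches describe the windows and are not measured binding sites, and the assembly is not the mm9 build that the submitters name.

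In the bleomycin library, 5 of the 9 members with enough counts to test were called lower and 0 higher, while 4 were not called. The called members were Nr4a1, Nr4a3, Egr1, Zfp36 and Ier2, with ratios of bleomycin to saline between 0.226 and 0.384. A gene was tested at 10 or more counts over both libraries, by a two-sided exact binomial test on the reads. A gene was called where its p, adjusted over all genes tested, was under 0.05 and the libraries differed by 2-fold or more. Among the 9369 genes tested, 8.59% were called lower and 8.11% higher. The log2 ratios of the 9 tested members ran from −2.14 to −0.23 and had a median of −1.38, beside 0.02 over all tested genes. Together the 10 members made up 1.57% of the saline library and 0.594% of the bleomycin library, which after scaling is a ratio of 0.389 (0.378 to 0.4). Without Egr1, the most abundant of them, the ratio of the sums was 0.393 (0.378 to 0.409). The calls rest on counting error: if libraries of 1 condition varied with an assumed coefficient of variation of 0.2, 4 members were called lower by edgeR's exact test. Of all tested genes, 3.55% were called lower at that setting. With 0.4, 0 members were called, and 8 of all tested genes were called lower.

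**Figure D1:**
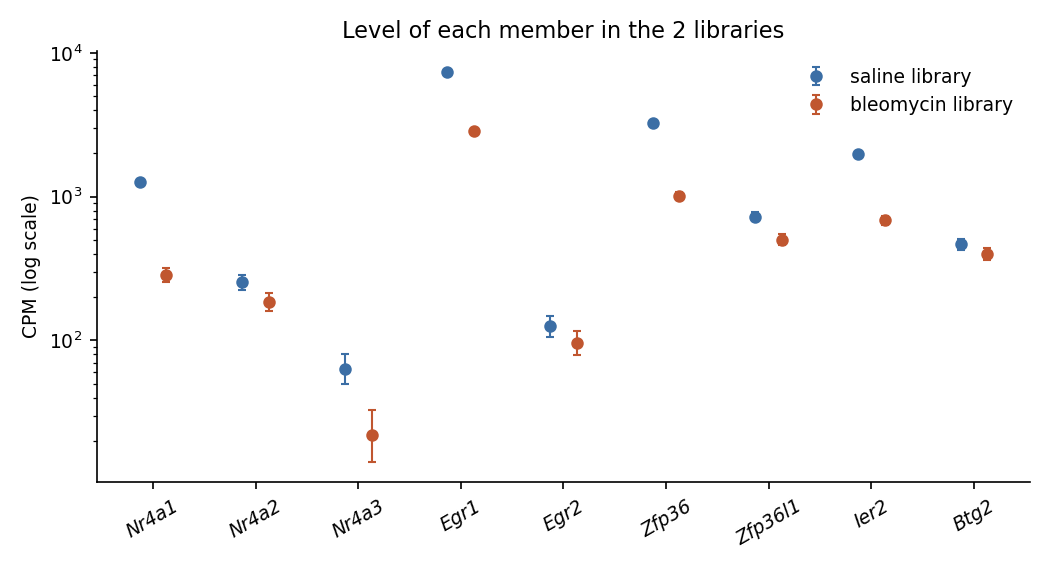
Level of the 9 tested members in CPM (log axis) in the saline library (blue) and the bleomycin library (orange); points are single libraries and bars are exact Poisson 95% intervals. Every blue point lies above its orange partner, with the widest gap at Nr4a1 (1269 and 287 CPM) and the narrowest at Btg2 (468 and 398 CPM); Egr3, with 1 and 0 counts, is not drawn.

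The NR4A receptors differed among themselves. Nr4a1, also called Nur77, had 1391 saline and 311 bleomycin counts, or 1269 CPM (1203 to 1337) and 287 CPM (256 to 321). It was 4.42-fold lower (3.91 to 5.02), the smallest ratio of the 9 tested members, and 2.91% of tested genes had a smaller one. Nr4a3, also called NOR1, was the least abundant of the 3 with 70 saline and 24 bleomycin counts, or 2.88-fold lower (1.79 to 4.8). Its interval reaches below 2-fold, and it lost its call when a coefficient of variation of 0.2 was assumed. Nr4a2, also called Nurr1, had 280 saline and 201 bleomycin counts, a ratio of 0.726 (0.603 to 0.873), which is short of the 2-fold that a call needs.

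The ratios of relatives were then set against each other within the 2 libraries, a comparison in which library size cancels out; 9 pairs were compared, and their intervals are not adjusted for that number. The fold decrease of Nr4a1 was 3.21 times that of Nr4a2 (2.56 to 4.02), and that of Nr4a3 was 2.09 times that of Nr4a2 (1.25 to 3.6). Nr4a1 and Nr4a3 were not told apart by their counts, with a quotient of 1.53 (0.907 to 2.51). Nr4a1 gave 79.9% of NR4A counts with saline (77.9 to 81.8) and 58% with bleomycin (53.7 to 62.2). The share of Nr4a2 went from 16.1% (14.4 to 17.9) to 37.5% (33.4 to 41.8), and that of Nr4a3 was 4.02% and 4.48%, with intervals that overlap. The order Nr4a1, Nr4a2, Nr4a3 was the same in both libraries. Rxra and Rxrb, retinoid X receptors that pair with Nr4a1 and Nr4a2 on DNA, had 44 and 59 counts and 27 and 37 counts, and neither was called.

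**Figure D2:**
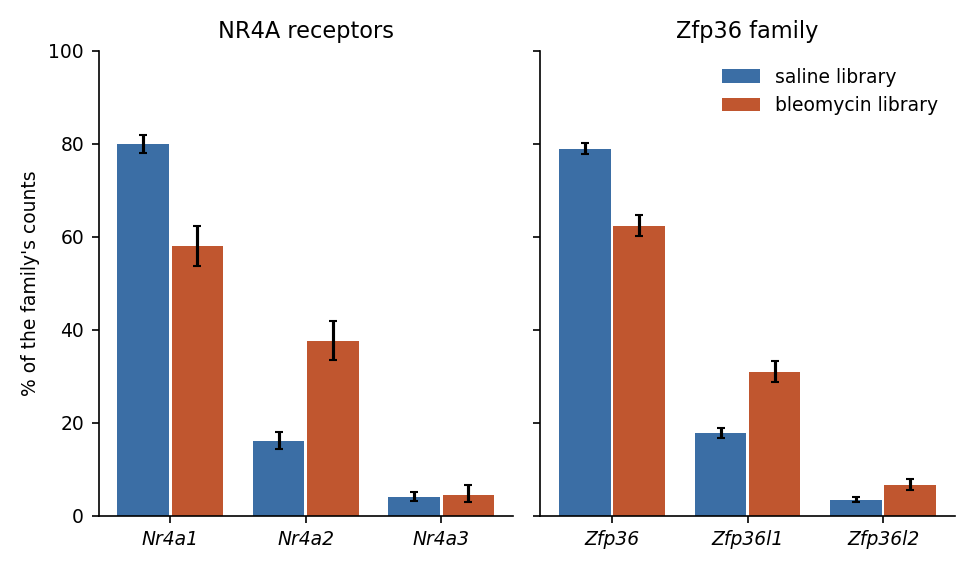
Share of a family's counts held by each gene, in percent, for the NR4A receptors (left) and the Zfp36 family with Zfp36l2 (right); bars are the saline (blue) and bleomycin (orange) libraries, with exact binomial 95% intervals. The share of Nr4a1 went from 79.9% to 58% and that of Zfp36 from 78.9% to 62.4%, while those of Nr4a2 and Zfp36l1 were larger in the bleomycin library.

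Egr1 accounted for nearly all EGR counts. With 8106 counts, or 0.75% of the library, it ranked 6 among all genes in the saline library, and with 3079 counts it ranked 38 in the bleomycin library. Its level of 7393 CPM (7233 to 7556) stood against 2840 CPM (2741 to 2942), and it was 2.6-fold lower (2.5 to 2.71). Egr2, known for its role in myelinating Schwann cells and in hindbrain patterning, had 138 saline and 105 bleomycin counts, a ratio of 0.769 (0.591 to 0.999). Egr3 had 1 saline and 0 bleomycin counts and was not tested. A floor of 3 bleomycin counts is 2.77 CPM, and the exact interval of the count of 0 reaches 3.4 CPM. The fold decrease of Egr1 was 2 times that of Egr2 (1.53 to 2.61). Egr2 made up 1.67% of EGR counts with saline (1.41 to 1.97) and 3.3% with bleomycin (2.7 to 3.98). The corepressor Nab1 had 66 and 93 counts and Nab2, which EGR factors themselves induce, had 38 and 32, with no call for either.

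Genes described in the literature as Egr1 targets were called in both directions. Of 15 on the list, 13 were tested, 4 were called higher and 1 lower, and their median log2 ratio was 0.71. With no minimum count the median was −0.18. The list includes Col1a2, the gene of the sort reporter, and matrix genes that many pathways control. Fn1, fibronectin, had 1018 saline and 8890 bleomycin counts, or 8.83-fold higher (8.28 to 9.43). Tgfb1, the ligand TGF-beta 1, had 36 saline and 139 bleomycin counts, or 3.9-fold higher (2.69 to 5.8). Igf2, insulin-like growth factor 2, was called lower with 81 saline and 19 bleomycin counts, or 4.22-fold lower (2.53 to 7.36).

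Zfp36, which encodes tristetraprolin, had 3551 saline and 1097 bleomycin counts, or 3239 CPM (3133 to 3347) and 1012 CPM (953 to 1074). It was 3.2-fold lower (2.99 to 3.43) and moved from rank 34 to rank 157 among all genes. Zfp36l1, a close relative with the same kind of paired zinc fingers, had 795 saline and 545 bleomycin counts, a ratio of 0.693 (0.621 to 0.774). Zfp36l2, the other relative measured, had 156 saline and 117 bleomycin counts, a ratio of 0.758 (0.592 to 0.97). The fold decrease of Zfp36 was 2.22 times that of Zfp36l1 (1.95 to 2.53) and 2.43 times that of Zfp36l2 (1.87 to 3.14). The share of Zfp36 in the counts of the 3 genes went from 78.9% (77.7 to 80.1) to 62.4% (60.1 to 64.6), and that of Zfp36l1 was 17.7% (16.6 to 18.8) and 31% (28.8 to 33.2). Zfp36 overlaps Gm44710 and Zfp36l1 overlaps Gm26669 on the opposite strand in GENCODE M21, and the sources used here do not say whether counting used strand.

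Members of the Zfp36 family bind the nonamer UUAUUUAUU, and the 3′ UTRs of Zfp36 and Zfp36l1 each hold a single copy. The sites are shown as DNA, from GENCODE M21 transcripts matched by the deposited accession, with the nonamer in capitals.
Zfp36, starting 589 bases into the 3′ UTR: tgacgactTTATTTATTgtattaag
Zfp36l1, starting 1404 bases into the 3′ UTR: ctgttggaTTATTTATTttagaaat

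The nonamer was in 2 of the 10 members and in 7.45% of 8746 tested genes matched to a transcript. The shorter AUUUA occurred in 9 of 10 members, Ier2 being without it, in 70.1% of the matched genes, and in 80.5% of the 5090 whose 3′ UTR length lay within the range of the members. Members had a median of 2.39 copies of AUUUA per kilobase of 3′ UTR beside 1.37 over the matched genes and 1.52 over those of like length, counting overlapping copies. Zfp36l1 had 9 copies, or 4.9 per kilobase, and Nr4a1, with a shorter 3′ UTR, had 3 copies, or 5.52 per kilobase.

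Of 16 tested transcripts described as targets of the Zfp36 family, 4 were called higher and 0 lower, with a median log2 ratio of 0.50. Csf2, the cytokine GM-CSF, had 2 saline and 13 bleomycin counts, or 6.57-fold higher (1.49 to 60.0), an interval that reaches below 2-fold. Ccnd1, cyclin D1, had 22 saline and 87 bleomycin counts, or 4-fold higher (2.48 to 6.71). Cxcl1, a neutrophil chemokine and the most abundant on this list, had 1943 and 1518 counts and was not called. With a ratio of at least 1.5 in place of 2, 8 were higher and 2 lower, and with an assumed coefficient of variation of 0.2, 1 was higher and 0 lower. Enzymes of the CCR4-NOT complex and of decapping, through which Zfp36 and Btg2 act, were measured at low counts. Of 16 tested, 1 was called higher, Dcp2 with 4 and 21 counts, and 1 lower, Dcp1b with 27 and 10 counts; both encode decapping proteins, and neither was called with an assumed coefficient of variation of 0.2. The median log2 ratio of the 16 was −0.53, or −0.40 with 5 counts added to each value, and 11 of them lay below 0. Pabpc1, the poly(A)-binding protein and the most abundant of the list, had 373 and 639 counts and was not called. Among other proteins that bind AU-rich or stem-loop elements, 0 of 10 were called, and Hnrnpd, the most abundant, had 135 and 163 counts.

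Ier2 had 2159 and 744 counts, or 1969 CPM (1887 to 2054) and 686 CPM (638 to 737), and was 2.87-fold lower (2.64 to 3.12). Ier3, Ier5 and Ier5l, which share its name for their rapid induction, were not called. Ier3, which encodes a regulator of cell survival, had 1398 and 1492 counts, and the ratio of saline to bleomycin was 3.1 times as large for Ier2 as for Ier3 (2.77 to 3.47). Ier5 had 493 saline and 301 bleomycin counts, a ratio of 0.617 (0.533 to 0.714), and the ratio of saline to bleomycin was 1.77 times as large for Ier2 (1.49 to 2.1).

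Btg2, with 513 and 432 counts and a ratio of 0.852 (0.748 to 0.97), was the member closest to equal levels. Its relative Btg1 had 485 saline and 602 bleomycin counts, a ratio of 1.26 (1.11 to 1.42), so that the ratio of saline to bleomycin was 1.47 times as large for Btg2 as for Btg1 (1.23 to 1.76). Of 12 tested relatives of the members, Tob1, another protein of the Btg family that binds the deadenylase, was the 1 called: it had 268 saline and 109 bleomycin counts, or 2.43-fold lower (1.94 to 3.07), and it lost its call with an assumed coefficient of variation of 0.2. The median log2 ratio of these 12 was −0.06, but they include the partners Nab1, Nab2, Rxra and Rxrb, at 0.51, −0.23, 0.44 and 0.46. Among the family relatives, Zfp36l2, Ier5, Ier5l, Tob1 and Tob2 lay between −0.40 and −1.28. Ier3, Btg1 and Btg3 lay between 0.11 and 0.33. Btg2 is also a p53 target. Of 15 tested p53 targets 3 were called higher and 1 lower. Their median log2 ratio was 0.70, and it was 0.37 where at least 50 counts were required. Cdkn1a, the cell cycle inhibitor p21 and the most abundant of them, had 583 saline and 609 bleomycin counts, a ratio of 1.06 (0.941 to 1.19). Zmat3, a p53-induced RNA-binding protein, had 4 saline and 25 bleomycin counts, or 6.32-fold higher (2.18 to 25), and Sesn1, a stress-induced sestrin, had 30 saline and 9 bleomycin counts, or 3.3-fold lower (1.53 to 7.89). With an assumed coefficient of variation of 0.2, 1 of the p53 targets was called higher and 0 lower.

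**Figure D3:**
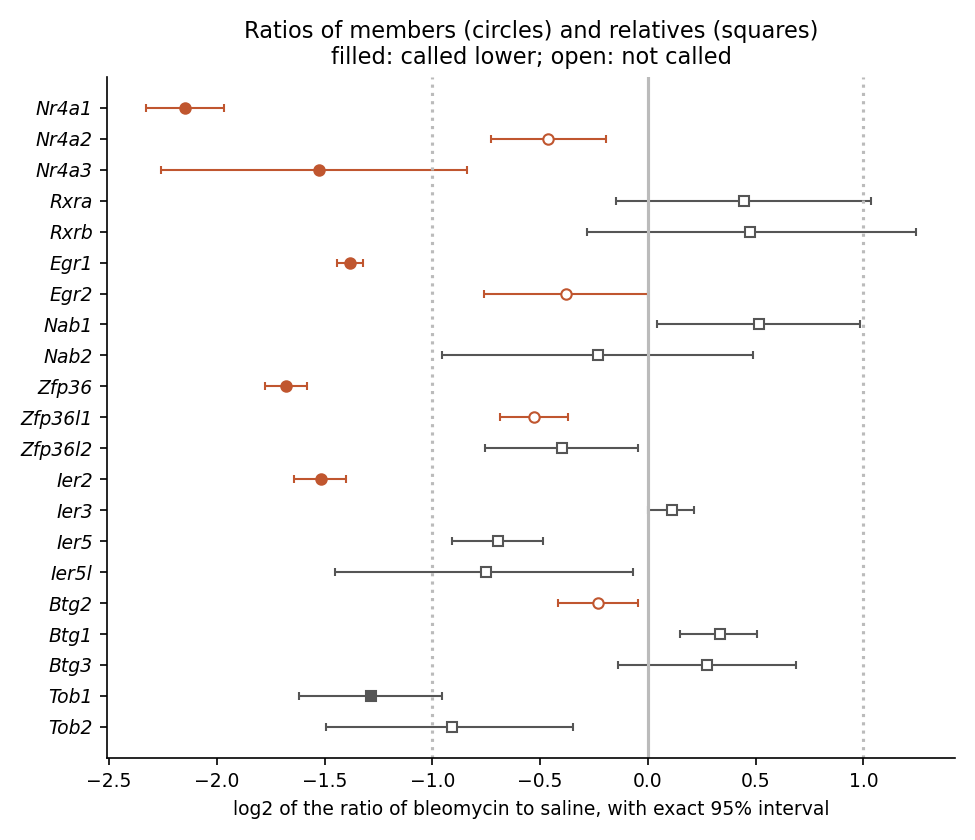
Log2 of the ratio of bleomycin to saline for 9 members (circles) and 12 relatives or partners (squares), with exact 95% intervals. Filled symbols were called lower, open ones were not called, and dotted lines mark a 2-fold ratio. Nr4a1, Nr4a3, Egr1, Zfp36, Ier2 and the relative Tob1 are filled, and Nr4a2, Egr2, Zfp36l1 and Btg2 lie between −1 and 0.

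Ordered by level, the members in the saline library ran Egr1, Zfp36, Ier2, Nr4a1, Zfp36l1, Btg2, Nr4a2, Egr2, Nr4a3 and Egr3. In the bleomycin library Egr1, Zfp36 and Ier2 kept the first places, at 2840, 1012 and 686 CPM. Zfp36l1 followed at 503 CPM (461 to 547) and Btg2 at 398 CPM (362 to 438), ahead of Nr4a1 at 287 CPM. The intervals of neighbouring genes in these orders did not overlap in either library. Of the 4 most abundant members in the saline library, all 4 were called lower, and of the next 4 none was. The saline count enters both that order and the calls, so the order is no separate support for them. Nr4a3, with the fewest counts of the tested members, was called as well, so the calls did not follow abundance throughout.

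**Figure D4:**
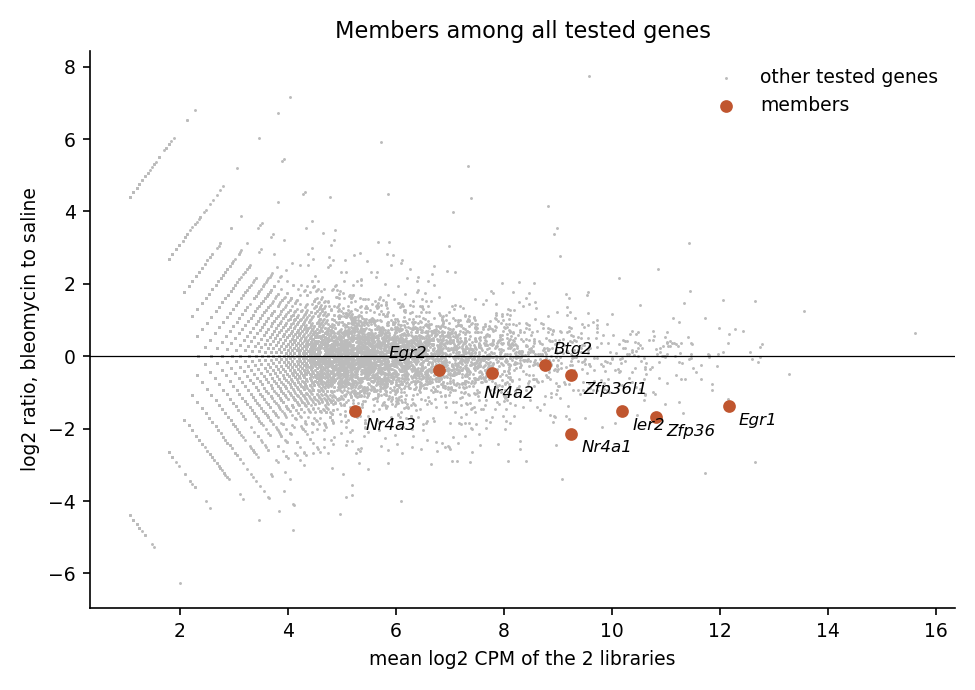
Log2 ratio of bleomycin to saline against mean log2 CPM of the 2 libraries for all 9369 tested genes (grey) and the 9 tested members (orange). All 9 members lie below 0, from −0.23 for Btg2 to −2.14 for Nr4a1, and Egr1 is the most abundant of them.

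Among the other immediate early genes, 34 were tested, of which 10 were called lower and 1 higher. Of the 34, 28 had a log2 ratio below 0, and the median was −0.78. Atf3, a stress-induced transcription factor, had 140 saline and 37 bleomycin counts, or 3.74-fold lower (2.59 to 5.53). Ppp1r15a, also called Gadd34, which restarts translation after stress, had 980 saline and 276 bleomycin counts, or 3.51-fold lower (3.07 to 4.03). Fos, the AP-1 subunit and the most abundant of the list, had 7525 saline and 3275 bleomycin counts, or 2.27-fold lower (2.18 to 2.37). Ctgf, a matricellular protein that TGF-beta induces, was the 1 called higher, with 752 and 1669 counts, at 2.24-fold (2.06 to 2.45). With an assumed coefficient of variation of 0.2, 4 of these genes were called lower and 0 higher, and with a ratio of at least 3, 3 were lower and 0 higher.

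Factors known to act at promoters of this kind include Creb1 and the partners of serum response factor. The 13 tested had 7 to 175 saline counts, beside a median of 26 over all tested genes. Of the 13, 2 were called, 1 lower and 1 higher, while 8.59% of all tested genes were called lower and 8.11% higher. Creb1, which binds the cyclic AMP response element, had 50 saline and 23 bleomycin counts, or 2.15-fold lower (1.29 to 3.69). Elk3, a partner of serum response factor, had 20 saline and 61 bleomycin counts, or 3.08-fold higher (1.84 to 5.4). Crem, a relative of Creb1 and the most abundant of the list, had 175 and 103 counts and was not called. The median log2 ratio of the 13 was −0.14, or −0.65 with a minimum of 50 counts, and 0 were called with an assumed coefficient of variation of 0.2.

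**Figure D5:**
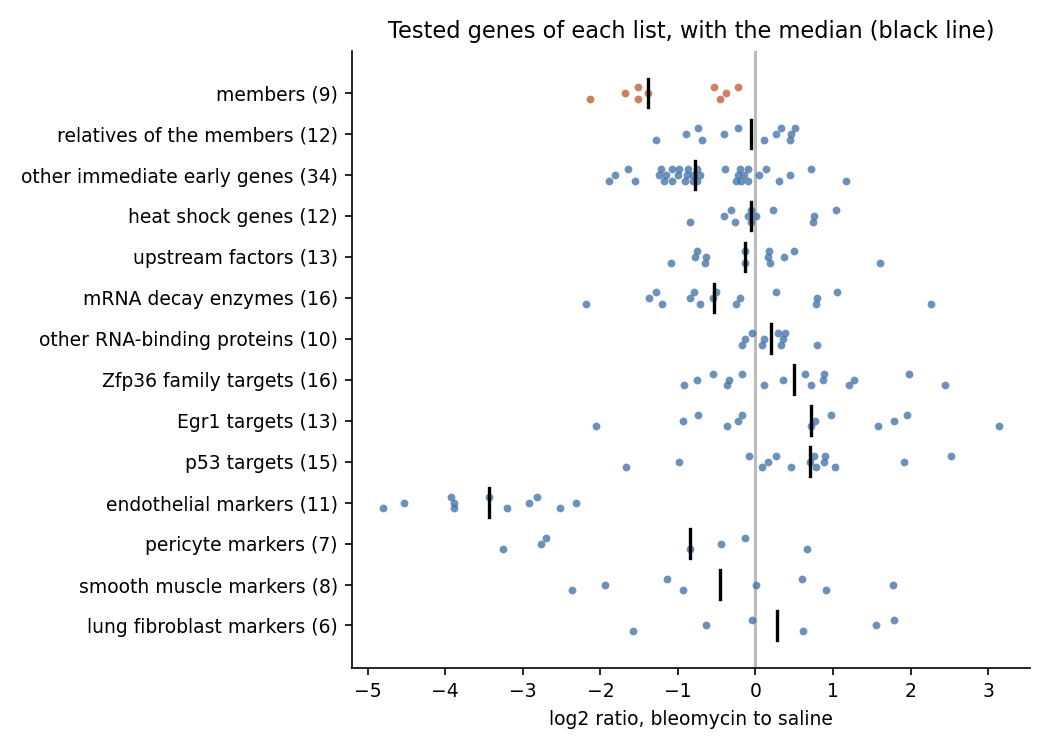
Log2 ratio of bleomycin to saline for each tested gene of the members (orange), of related lists and of cell type markers (blue); black lines are medians and numbers in brackets are genes tested. The members have a median of −1.38, other immediate early genes −0.78, heat shock genes −0.06 and endothelial markers −3.44.

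Markers of other cells and genes induced by handling were measured in the same libraries. Rapid-response genes are expressed by endothelium as well as by fibroblasts. All 11 tested endothelial markers were called lower, at a median of −3.44 on the log2 scale (−2.47 when 5 counts were added to each value), and the level summed over 14 genes was 536 CPM with saline and 37.8 CPM with bleomycin. Of the 14, Emcn was at 0 in both libraries, Erg at 0 in the saline library and Kdr at 0 in the bleomycin library. Of 7 tested pericyte markers 3 were called lower, with sums of 240 and 138 CPM, and of 8 tested smooth muscle markers 3 were lower and 1 higher, with sums of 1888 and 2575 CPM. Alveolar type 2 and epithelial markers summed to 159 and 18.4 CPM, with 154 of 174 saline and 7 of 20 bleomycin counts from Sftpc. Airway markers summed to 534 and 158 CPM, mostly Tppp3 with 535 of 586 and 153 of 171 counts, while Scgb1a1, the secretory cell marker, had 46 and 12. The other airway markers were near 0, with Foxj1 at 0 and 3 counts, Krt5 at 0 and 1, and Cyp2f2 at 5 and 2. Heat shock genes, which tissue digestion also induces, had 1 of 12 called, Hsph1 at 2.06-fold higher (1.66 to 2.58), a median log2 ratio of −0.06 and sums of 13892 and 13162 CPM. The most abundant of them, Hspa1b, had 4724 and 3909 counts and was not called. The part of these other cells and of handling in the members' ratios was not tested, and in RNA from many cells fewer cells with a transcript and less of it per cell cannot be told apart.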

How the data were processed

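Values are whole-number tag counts per gene, deposited by the authors in 1 table for 2 SOLiD SAGE libraries. BWA 0.6.2 and mm9 appear in the submitters' processing notes without their roles. The assignment of tags to genes, the use of strand and any scaling of the counts are not given in the sources used here; intervals hold only for raw counts. The labels name no molecular identifiers, and precision covers counting error only, at 12275 and 12918 genes with a count. The table had 16040 genes and 1 blank line, which was dropped, and 21 symbols that a spreadsheet had made into dates were restored from the descriptions. Members and lists were chosen with earlier results of these data known; 229 of 241 list entries matched a symbol.

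Library sizes were scaled by TMM in edgeR 4.0.16 (factors 1.01 and 0.986). Without replicates edgeR's quasi-likelihood fit could not be made, so genes with at least 10 counts were tested by an exact binomial test with Benjamini-Hochberg adjustment over all genes tested, using scipy 1.17.1 under Python 3.11.15. Log2 ratios have 0.5 added to each count; ratios have Clopper-Pearson intervals and no added count. All members were named. Lists other than those of cell type markers had up to 2 called genes in each direction and the most abundant gene named. From the marker lists only some of these were named, and any other named gene was chosen after its values were seen. Alternatives were total counts, DESeq2 1.42.0 size factors, minimum counts, the added count, the ratio, Bonferroni adjustment and edgeR's exact test with an assumed coefficient of variation. The tag of a SAGE kit lies at the last CATG of a transcript, and it was taken as 27 bases that begin with that CATG. In their GENCODE transcript 8 members, all but Nr4a1 and Egr1, had such a tag. Of these 8 tags, 0 were shared with another gene.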

Additional observations from a re-analysis of the deposited data

How the results depend on the processing

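All 9 tested members kept a log2 ratio below 0 under every alternative run, and the median of the members moved by less than 0.1 with total counts, DESeq2 size factors, other minimum counts or 5 added counts. The same 5 members were called lower with other scalings, minimum counts, Bonferroni adjustment or a ratio of 1.5. With a ratio of at least 3, 2 members were called (Nr4a1 and Zfp36). With edgeR's exact test, 4 were called at an assumed coefficient of variation of 0.2 (all but Nr4a3) and 0 at 0.4, since a larger assumed spread widens the test. Of all 9369 tested genes, 805 were lower and 760 higher. A minimum of 50 counts left 4823 genes to test, of which 491 (10.2%) were lower and 401 higher. Over the same 9369 genes, the counts were 458 and 460 where a call needed 3-fold, and 335 and 288 under Bonferroni adjustment. They were 333 and 274 with a coefficient of variation of 0.2, and 8 and 21 with 0.4. Medians that changed sign were those of Egr1 targets (−0.18 with no minimum count), smooth muscle markers (0.30 with a minimum of 50) and mesothelial markers (0.47 with no minimum, the main value −0.22 resting on 1 gene). Counts under about 10 leave ratios with wide intervals. No paired analysis was possible because each group has 1 library.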
